A study of Mus musculus with 6 samples.

Results

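The genes of the 3 immunoproteasome catalytic subunits, *Psmb8*, *Psmb9*, and *Psmb10*, were compared with those of the constitutive subunits whose places they take, *Psmb5*, *Psmb6*, and *Psmb7*, in HSCs of WT and *Irf1-/-* mice. The PA28 activator genes *Psme1*, *Psme2*, and *Psme2b* and the maturation factor *Pomp* were examined beside them. These 10 genes were found by symbol among the 26264 genes of the table, and all 10 passed the filter on low values. HSCs with the surface phenotype Lin-Sca1+cKit+CD150+CD48- had been sorted from bone marrow of untreated female mice, 8 weeks of age. The WT group was 3 C57Bl/6 mice and the *Irf1-/-* group was 3 B6.129S2-Irf1 tm1Mak/J mice, with 1 library per mouse, and the libraries carry the replicate numbers 2, 3, and 4 in both genotypes. Between 43138521 and 59658080 reads were counted on genes per library. The knockout is present in the whole body, so an effect within HSCs and an effect of their surroundings cannot be told apart.

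The proteasome degrades ubiquitinated proteins in a barrel-shaped 20S core, in which β1, β2, and β5 carry the active sites. Interferon induces the immunosubunits β1i, β2i, and β5i, which are built into newly assembled cores in place of the constitutive subunits and alter which peptides are cut out for presentation on MHC class I. PA28 is a ring that caps the core and opens it, and IRF1 is a transcription factor of the interferon response known to bind regulatory sequences of several of these genes.

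The knocked-out gene was looked at first. Normalized counts, that is, reads on a gene divided by 1 size factor per library, of *Irf1* were 10122, 11120, and 12057.5 in WT replicates 2, 3, and 4 and 9267, 9524, and 9287 in the same order in *Irf1-/-* HSCs. Each *Irf1-/-* library was below each WT library, but reads were still counted on the gene at 84.3% of the WT mean (−0.24 ± 0.088 on the log2 scale with SE, adjusted *P* = 0.170, limma). The count is over the whole gene and does not separate transcripts with and without the targeted piece, so it does not check the genotype labels. The 9 HSC marker genes, which include the sort markers *Kit*, *Slamf1* (CD150), and *Ly6a* (Sca1), were counted in every library, with *Kit* at a mean of 82378.5 and a summed level between 181871 and 216493. One of them, *Fgd5*, was called higher in *Irf1-/-* HSCs (178% of WT, adjusted *P* = 9.13e-05, limma), though not without the trend of variance with intensity (adjusted *P* = 0.0511, the highest of its alternatives, with 2.3e-16 the lowest). The others were not called, but 6 of the 9 had an unadjusted *P* under 0.05, 5 of them higher in *Irf1-/-* HSCs and 1, *Ly6a*, lower, beside 1459 higher and 1404 lower of the 17404 genes tested, of which 0.960% were called higher. The sort marker *Slamf1* was at 118% of WT (adjusted *P* = 0.217, limma), with all *Irf1-/-* libraries above WT. *Procr* was at 143% of WT (adjusted *P* = 0.0112, limma), with all *Irf1-/-* libraries above WT, and the sort marker *Ly6a* at 74.4% (adjusted *P* = 0.0245, limma), with all *Irf1-/-* libraries below WT. *Procr* was called without WT replicate 2 (adjusted *P* = 0.0149, within a range of 7.65e-05 to 0.227 over its alternatives, the highest without the trend). The adjusted *P* of *Ly6a* was above 0.05 without the trend (0.262, the highest of its alternatives, with 0.00111 the lowest) and without *Irf1-/-* replicate 2 (0.115), *Irf1-/-* replicate 4 (0.112), or WT replicate 3 (0.0786).

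Markers of other blood cells were summed per library. The 4 megakaryocyte genes gave 46549, 59763, and 44627 in WT replicates 2, 3, and 4 and 39940, 24622, and 35497 in *Irf1-/-* replicates 2, 3, and 4. The sums were lower in all *Irf1-/-* libraries. *Itga2b* was the most abundant (mean 31199.7), and *Pf4* was called lower at 48.2% and *Gp1ba* at 61.1% of WT. *Gp9*, at 82.6% of WT, overlapped between the genotypes and was not called. The 4 erythroid genes gave 1436, 1318.5, and 1201 in WT and 925, 622, and 957 in *Irf1-/-* HSCs, mostly from *Klf1* (mean 1044, called lower), while the globin genes *Hba-a1* and *Hbb-bt* had 0 reads. The 5 dendritic cell genes gave 2764, 1792, and 3088 in WT and 3576.5, 4552, and 3516 in *Irf1-/-* HSCs, nearly all from *Flt3* (mean 3105, called higher), a receptor that early progenitors also express. The other 4 had lower means in *Irf1-/-* HSCs (49.5 to 86.1% of WT, at most 51.9 normalized counts in WT), overlapped between the genotypes, and were not called, so the higher sum was that of *Flt3* alone. The calls of *Gp1ba*, *Klf1*, and *Flt3* were lost without *Irf1-/-* replicate 3 (log2 change −0.638, −0.495, and 0.547) or WT replicate 3 (−0.516, −0.720, and 0.448), without *Irf1-/-* replicate 2 (−0.704, −0.826, and 0.737), for *Klf1* also without WT replicate 2 (−0.663), and for *Flt3* also without *Irf1-/-* replicate 4 (0.733). Without the trend the calls of *Pf4*, *Gp1ba*, *Klf1*, and *Flt3* were all lost (adjusted *P* = 0.238, 0.259, 0.316, and 0.358, the highest of their alternatives, with 0.00089, 0.000141, 0.00187, and 0.00196 the lowest). The part of these marker genes in the results on proteasome genes was not tested.

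The 5 neutrophil genes gave 362 and 317 in WT replicates 2 and 3 but 4628 in WT replicate 4, with *Ltf* at 2032, *S100a9* at 1246, and *S100a8* at 1033 in that library. In *Irf1-/-* replicates 2, 3, and 4 the sums were 443, 417, and 708, and 0 of the 5 genes were called in limma, edgeR, or DESeq2 or had an unadjusted *P* under 0.05. WT replicate 4 therefore stood apart in *Ltf*, *S100a9*, and *S100a8*. Its values of *Elane* (64.5) and *Mpo* (253) lay within the range of the *Irf1-/-* libraries. The count of called members and the ratios are also given without this library. The B cell (6 genes, led by *Cd79b*), T cell (6, led by *Lck*), NK cell (4, led by *Nkg7*), and monocyte or macrophage lists (5, led by *Lyz2*) had 0 called genes in limma, edgeR, and DESeq2 and 1 at an unadjusted *P* under 0.05 in limma (*Nkg7*), and *Gzma* had 0 reads in every library. Their summed levels overlapped between the genotypes, lying between 2667 and 3103 for B cell genes, 1071 and 1317 for T cell genes, 2673 and 3723 for NK cell genes, and 24199 and 32533 for monocyte or macrophage genes.

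The 3 immunosubunit genes were lower in *Irf1-/-* HSCs at 50.8 to 55.0% of WT, and so were the 3 PA28 genes at 50.3 to 66.8%. The constitutive catalytic genes were at 82.4 to 85.9% of WT and did not pass the test, and neither did *Pomp* at 80.1%. In limma, fitted to log2(normalized count + 1) for the 17404 genes whose mean reached 10, a call needed both an adjusted *P* below 0.05 and a log2 change of more than 0.58 in either direction. By this rule 6 of the 10 genes were called lower, beside 0.954% of all genes tested, and 0 were called higher, beside 0.960%; edgeR and DESeq2 on the recovered reads also called 6 lower. The count was 5 without WT replicate 4, the library high in *Ltf*, *S100a9*, and *S100a8*. It was 1 when limma was fitted without the trend of variance with intensity. The libraries of the genotypes did not overlap, with *Irf1-/-* below WT, for 8 of the 10, beside 9.27% of all genes tested. Reads of *Psme2* and its near copy *Psme2b* cannot be fully separated, so these genes are not independent in either count. In bulk RNA, fewer cells that express a gene and less RNA per cell cannot be told apart.

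*Psmb8* encodes β5i, the immunosubunit with chymotrypsin-like activity. Its normalized counts were 23829, 27628, and 24345 in WT replicates 2, 3, and 4 and 12519.5, 14237, and 14907 in *Irf1-/-* replicates 2, 3, and 4. Every *Irf1-/-* library was below every WT library, and the gap between the groups was wider than the range within either. The means were 25267.5 ± 2061 in WT and 13888 ± 1231 in *Irf1-/-* HSCs (SD, n = 3 each), and the change was −0.86 ± 0.095 on the log2 scale with SE (adjusted *P* = 0.000160, limma).

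*Psmb9* encodes β1i, whose gene lies back to back with that of the peptide transporter subunit *Tap1* in the MHC region. Its normalized counts were 9553, 10164, and 9865 in WT and 4825, 4948, and 5257 in *Irf1-/-* replicates 2, 3, and 4. The 3 values of each genotype lay close together and the groups were far apart. The means were 9861 ± 305 and 5009.9 ± 223 (SD, n = 3 each), and the change was −0.98 ± 0.083 on the log2 scale with SE (adjusted *P* = 9.98e-06, limma). *Psmb9* was the 1 member called lower under all 16 alternatives to the test.

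*Psmb10* encodes β2i, which carries the trypsin-like site of the immunoproteasome. Counts of 8617, 9559, and 8442 in WT and of 4094, 5061, and 4583 in *Irf1-/-* replicates 2, 3, and 4 were obtained. Again the lowest WT library was above the highest *Irf1-/-* library. The change was −0.96 ± 0.097 on the log2 scale with SE (adjusted *P* = 7.11e-05, limma), with means of 8872 ± 601 and 4579 ± 484 (SD, n = 3 each). Without the trend in limma, *Psmb8* and *Psmb10* were no longer called (adjusted *P* = 0.0854 and 0.0705, the highest of their 16 alternatives, of which the lowest were 2.34e-15 and 5.81e-17), and *Psmb9* still was (adjusted *P* = 0.0318, the highest of its alternatives, with 8.51e-26 the lowest).

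The 3 immunosubunit genes moved in near proportion to each other. *Psmb8* over *Psmb9* was 2.49, 2.72, and 2.47 in WT and 2.59, 2.88, and 2.84 in *Irf1-/-* replicates 2, 3, and 4, and *Psmb10* over *Psmb9* was 0.902, 0.940, and 0.856 in WT and 0.848, 1.02, and 0.872 in *Irf1-/-* HSCs. Both ratios overlapped between the genotypes and were not tested, since they were chosen after the values were seen.

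*Psmb5* encodes β5, the constitutive chymotrypsin-like subunit that β5i replaces. Its normalized counts were 5894.5, 6481, and 5536 in WT and 4505, 5593, and 4658 in *Irf1-/-* replicates 2, 3, and 4. The groups overlapped, because *Irf1-/-* replicate 3 was above WT replicate 4. The means were 5970.5 ± 477 and 4919 ± 589 (SD, n = 3 each) and the change was −0.28 ± 0.10 on the log2 scale with SE (adjusted *P* = 0.170, limma).

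*Psmb6* encodes β1, the caspase-like constitutive subunit. Counts were 12888, 14017, and 13354 in WT and 10312, 13568, and 10723 in *Irf1-/-* replicates 2, 3, and 4. *Irf1-/-* replicate 3 lay within the WT range and the other *Irf1-/-* libraries below it. The change was −0.23 ± 0.10 on the log2 scale with SE (adjusted *P* = 0.293, limma). Without *Irf1-/-* replicate 3 it was −0.351 (adjusted *P* = 0.0584, the lowest of its alternatives, with 0.673 the highest), and without *Irf1-/-* replicate 2 it was −0.153.

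*Psmb7* encodes β2, the constitutive trypsin-like subunit. It had 3594, 3910.5, and 3842 normalized counts in WT and 2935, 3409, and 3172 in *Irf1-/-* replicates 2, 3, and 4. It was the 1 constitutive catalytic gene whose libraries did not overlap between the genotypes, although its change of −0.26 ± 0.094 on the log2 scale with SE was not called (adjusted *P* = 0.177, limma). All 3 constitutive genes had an unadjusted *P* under 0.05 in limma, and edgeR and DESeq2 called 0 of them. Their direction was the same under every scaling tried, with a median log2 fold change of −0.26 as deposited, −0.23 after quantile normalization, and −0.29 after median centring.

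**Figure D1:**
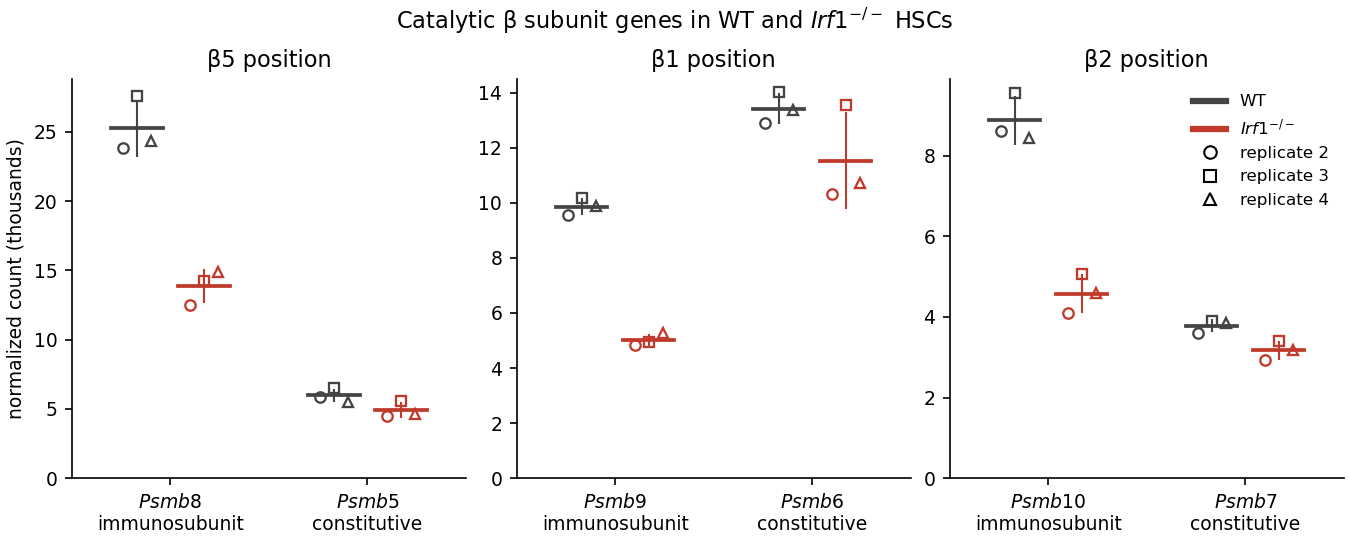
Normalized counts in units of 1000 (linear axes from 0, a different scale in each panel) of the immunosubunit and the constitutive gene of the β5, β1, and β2 positions; each symbol is 1 library, bars are means, and vertical lines are SD of 3 libraries. *Irf1-/-* libraries lie below all WT libraries for *Psmb8*, *Psmb9*, *Psmb10*, and *Psmb7*, and overlap with WT for *Psmb5* and *Psmb6*.

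Ratios within a library do not depend on its size factor, so each immunosubunit was set against its constitutive counterpart in the same library. *Psmb8* over *Psmb5* was 4.04, 4.26, and 4.40 in WT replicates 2, 3, and 4 and 2.78, 2.55, and 3.20 in *Irf1-/-* replicates 2, 3, and 4. All *Irf1-/-* ratios were below all WT ratios. The mean ratio was 4.23 ± 0.179 in WT and 2.84 ± 0.332 in *Irf1-/-* HSCs, a log2 difference of −0.58 (SE 0.10, n = 3 each, exact two-sided permutation test, *P* = 0.1). This is the smallest *P* that 3 libraries against 3 can give, so none of the 3 ratio tests could pass 0.05.

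*Psmb9* over *Psmb6* was 0.741, 0.725, and 0.739 in WT and 0.468, 0.365, and 0.490 in *Irf1-/-* replicates 2, 3, and 4. The WT ratios were nearly identical, and the *Irf1-/-* ratios were all lower and more spread, with *Irf1-/-* replicate 3 the lowest. The log2 difference was −0.75 (SE 0.13, n = 3 each, exact two-sided permutation test, *P* = 0.1). The ratio in *Irf1-/-* HSCs was 60.0% of that in WT.

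*Psmb10* over *Psmb7* was 2.40, 2.44, and 2.20 in WT and 1.39, 1.48, and 1.44 in *Irf1-/-* replicates 2, 3, and 4. The 3 *Irf1-/-* ratios lay close together, well below the WT ratios. The log2 difference was −0.70 (SE 0.054, n = 3 each, exact two-sided permutation test, *P* = 0.1). Without WT replicate 4, the library high in *Ltf*, *S100a9*, and *S100a8*, the log2 differences of the 3 ratios were −0.553, −0.745, and −0.749 in the order given here.

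The length of the gene's transcript was taken into account to compare levels between genes, since longer transcripts give more reads. Per 1000 bases of the longest coding model in GENCODE vM1, the 3 immunosubunit genes together made up 52.3, 53.0, and 52.3% of the summed level of the 6 catalytic genes in WT replicates 2, 3, and 4. In *Irf1-/-* replicates 2, 3, and 4 they made up 41.3, 38.3, and 43.6%. The immunosubunit share was thus above that of the constitutive genes in each WT library and below it in each *Irf1-/-* library on this scale. Per coding length, without the transcript ends, the shares were higher, 64.6% in WT and 53.5% in *Irf1-/-* HSCs on average, so which class was more abundant in *Irf1-/-* HSCs depended on the length used.

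By position, the share of the immunosubunit per transcript length was 69.4 ± 0.906% for β5 (*Psmb8* of *Psmb8* and *Psmb5*) in WT and 60.2 ± 2.76% in *Irf1-/-* HSCs (SD, n = 3 each). It was 68.2 ± 1.24% and 56.8 ± 0.768% for β2, and 30.3 ± 0.25% and 20.6 ± 2.53% for β1. The immunosubunit transcript was therefore the more abundant one at β5 and β2 in both genotypes and the less abundant one at β1 in both.

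In order of level per 1000 transcript bases, WT HSCs had *Psmb6* (16816 ± 711), *Psmb8* (15521 ± 1266), *Psme1* (13256 ± 674), *Pomp* (7843 ± 60.8), *Psmb9* (7299 ± 226), *Psmb10* (6986 ± 473), *Psmb5* (6855 ± 548), *Psme2* (6114 ± 98.5), *Psmb7* (3260.3 ± 144), and *Psme2b* (2112.5 ± 98.4). The ranges over libraries of *Psmb6* and *Psmb8* overlapped, and those of *Psmb9*, *Psmb10*, and *Psmb5* all overlapped with each other. Within each WT library, *Psmb6* was above *Psmb8* and *Psmb10* was above *Psmb5*. *Psmb9* and *Psmb10* changed order between WT libraries. *Irf1-/-* HSCs had *Psmb6* (14454 ± 2222) first, then *Psme1* (8852 ± 579.8) and *Psmb8* (8531 ± 756), which overlapped, and *Pomp* (6282 ± 866) and *Psmb5* (5647 ± 676), which overlapped. Next came *Psmb9* (3708 ± 165), *Psmb10* (3606 ± 381), and *Psme2* (3409 ± 341), which all overlapped with each other. *Psmb7* (2735 ± 204) and *Psme2b* (1063 ± 138) were again last. The position of *Psmb8* depends on the gene model, because it has a model of 815 bases beside the one of 1628 bases used here, which would put its WT level at 31003.

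*Psme1* encodes PA28α. Its normalized counts were 13878, 15235, and 15109.5 in WT and 9099, 10211.5, and 10219 in *Irf1-/-* replicates 2, 3, and 4. The groups did not overlap, with *Irf1-/-* HSCs at 66.8% of WT. The change of −0.58 ± 0.087 on the log2 scale with SE (adjusted *P* = 0.00204, limma) was just past the threshold on its size. It fell short of that threshold after quantile normalization (−0.54) and without WT replicate 3 (−0.559), WT replicate 4 (−0.565), or *Irf1-/-* replicate 2 (−0.528), and without the trend its adjusted *P* was 0.134, the highest of its alternatives (lowest 3.3e-08).

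*Psme2* encodes PA28β, which assembles with PA28α into the activator ring. Counts of 5780.1, 5898.5, and 5967 in WT and of 2988, 3634.5, and 3216 in *Irf1-/-* replicates 2, 3, and 4 were obtained. The WT values varied little and all *Irf1-/-* values were far below them. The change was −0.85 ± 0.094 on the log2 scale with SE (adjusted *P* = 0.000164, limma). *Psme2* over *Psme1* was 0.416, 0.387, and 0.395 in WT and 0.328, 0.356, and 0.315 in *Irf1-/-* HSCs, so the activator's β transcript was lower relative to its α transcript in all *Irf1-/-* libraries, a comparison chosen after the values were seen and not tested.

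*Psme2b*, named *Psme2b-ps* in GENCODE vM1, is a near copy of *Psme2*. It had 1693, 1856, and 1756 normalized counts in WT and 760.1, 982, and 927 in *Irf1-/-* replicates 2, 3, and 4. Here too the genotypes did not overlap, and *Irf1-/-* HSCs were at 50.3% of WT (−1.0 ± 0.13 on the log2 scale with SE, adjusted *P* = 0.000501, limma). Its coding sequence in GENCODE vM1 is identical to that of *Psme2* at 715 of 720 positions (99.3%), and 52.0% of all stretches of 100 bases in its transcript occur unchanged in a *Psme2* transcript. Reads of the copies can therefore not be fully separated, and the value of *Psme2b* is uncertain. *Psme2* and *Psme2b* also lost their calls in limma without the trend (adjusted *P* = 0.0705 and 0.0746, the highest of their alternatives, with 3.66e-14 and 8.58e-12 the lowest).

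Strand use in the counting was not stated, so it is not known how reads of overlapping genes were assigned. *Psme1* overlaps *Emc9* and *Psme2b* overlaps *9930111J21Rik1* in the gene table of GRCm38.p6. *Emc9* had 347, 251, and 314 normalized counts in WT and 395, 453, and 416 in *Irf1-/-* replicates 2, 3, and 4, and *9930111J21Rik1* had 304, 258, and 294 in WT and 204, 169, and 109 in *Irf1-/-* HSCs. Neither was called in limma, and both were much lower than the member they overlap. *9930111J21Rik1* was at 56.2% of WT with all *Irf1-/-* libraries below WT, as for *Psme2b*, and was called in DESeq2 (−0.831 on the log2 scale, adjusted *P* = 0.0192, the lowest of its alternatives, with 0.351 the highest) and in limma after quantile normalization (−0.997, adjusted *P* = 0.0497).

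*Pomp* encodes the chaperone that is needed to assemble and mature the core and is consumed in the process. Its normalized counts were 5749, 5805, and 5717 in WT and 3960.3, 5229.7, and 4643 in *Irf1-/-* replicates 2, 3, and 4. WT libraries were almost equal, whereas *Irf1-/-* libraries spread over a wide range below them. The change was −0.33 ± 0.10 on the log2 scale with SE, and *Pomp* was not called (adjusted *P* = 0.107, limma).

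*Irf1-/-* replicate 3 had the highest value of the 3 *Irf1-/-* libraries for *Psmb5*, *Psmb6*, *Psmb7*, *Pomp*, *Psmb10*, *Psme2*, and *Psme2b*. Without this library the log2 differences of the ratios *Psmb8* over *Psmb5*, *Psmb9* over *Psmb6*, and *Psmb10* over *Psmb7* were −0.505, −0.618, and −0.724. The fewest reads behind a value of any member were 713, for *Psme2b* in *Irf1-/-* replicate 2, a counting error of 3.75%, and at least 2753 for the catalytic genes (1.91%).

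The rest of the proteasome was examined through 39 further genes in 6 lists, of which 38 were tested. None was called in limma, edgeR, or DESeq2 (0 in each), while 24 had an unadjusted *P* under 0.05 in limma, all lower in *Irf1-/-* HSCs, beside 1404 lower and 1459 higher among the 17404 genes tested. Of the 38, 36 were lower in *Irf1-/-* HSCs (37 after quantile normalization or median centring), with a median log2 fold change of −0.23, beside −0.0028 over all genes tested, of which 8776 of 17404 were lower. In 17 of them the *Irf1-/-* libraries were all below WT, beside 9.27% of all genes tested. The median of the 10 members was −0.72, that of the immunosubunits −0.96, and that of the constitutive catalytic genes −0.26.

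By subcomplex, the 4 structural β genes had a median change of −0.27 on the log2 scale, from −0.31 for *Psmb2* to −0.22 for *Psmb1* (−0.124 without *Irf1-/-* replicate 2). The 8 α ring genes had a median of −0.29, from −0.46 for *Psma5* (adjusted *P* = 0.0267, limma) to 0.015 for *Psma8*, whose direction turned under both other scalings. *Psma8* had the lowest counts of them, a WT mean of 639.6 beside 7221 for the next lowest, *Psma5*. After *Psma8*, the highest change was −0.21 for *Psma1*. In the regulatory particle, the 6 ATPase genes had a median of −0.21, from −0.29 for *Psmc5* (−0.191 without *Irf1-/-* replicate 2) to −0.19 for *Psmc6*, and the 13 other genes a median of −0.22, from −0.40 for *Psmd13* (adjusted *P* = 0.0392, limma) to 0.058 for *Sem1*, which turned without WT replicate 3 (−0.174). *Psma5* and *Psmd13* were the 2 of 38 genes lower at an adjusted *P* under 0.05 at any size, beside 1.49% of all genes tested. Both were above 0.05 without the trend (adjusted *P* = 0.289 and 0.298, the highest of their alternatives, with 0.00142 and 0.00383 the lowest), without *Irf1-/-* replicate 2 (0.121 and 0.166), *Irf1-/-* replicate 4 (0.138 and 0.147), or WT replicate 3 (0.114 and 0.153), and *Psmd13* also without WT replicate 2 (0.141). The core subunits outside the catalytic sites thus had medians close to the values of *Psmb5*, *Psmb6*, and *Psmb7*.

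The 4 assembly chaperone genes of the PSMG family had a median of −0.26, from −0.33 for *Psmg2* to −0.22 for *Psmg3*, beside −0.33 for *Pomp*. Of the other activators and the inhibitor, *Psme3*, which encodes PA28γ of the nucleus, was at −0.22 on the log2 scale (adjusted *P* = 0.268, limma) and *Psmf1*, the inhibitor PI31, at −0.13 (−0.0646 without WT replicate 3 and −0.211 without WT replicate 4). *Psme3* had 14445, 15239.8, and 12343 normalized counts in WT and 11337, 12930.0, and 11643 in *Irf1-/-* replicates 2, 3, and 4, with overlap between the genotypes, unlike its relatives *Psme1* and *Psme2*. *Psmb11*, the catalytic subunit of the thymus, was not tested; it had 1.65, 2.25, and 10.8 normalized counts in WT and 0, 0.864, and 8.30 in *Irf1-/-* HSCs.

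**Figure D2:**
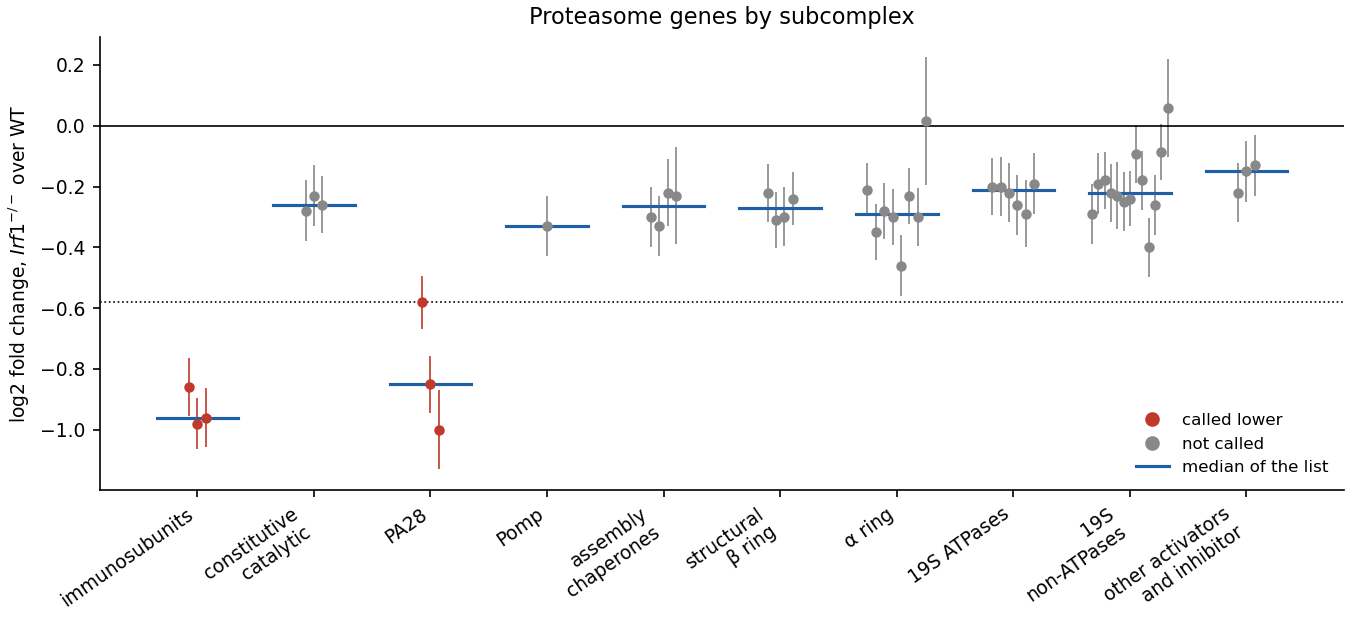
Log2 fold change (*Irf1-/-* over WT, with SE) of each tested proteasome gene, grouped by list; horizontal bars are list medians and the dotted line is the threshold of −0.58. The 6 called genes are the immunosubunits and the PA28 genes, and the other lists have medians between −0.33 and −0.15.

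Regulators of constitutive proteasome genes were examined next. *Nfe2l1*, *Nfe2l2*, *Ddi2*, and *Stat3* control constitutive proteasome genes or the factors that do. Of these, 0 were lower in *Irf1-/-* HSCs, beside 8776 of 17404 genes tested. In limma, edgeR, and DESeq2 0 were called, beside 0.954% of all genes called lower and 0.960% called higher in limma. At an unadjusted *P* under 0.05 in limma there were 2, *Nfe2l1* and *Stat3*, beside 1459 higher and 1404 lower among all genes tested. Both were higher in *Irf1-/-* HSCs. Log2 fold changes lay between 0.088 for *Ddi2*, which turned without WT replicate 4 (−0.073), and 0.24 for *Stat3*, around a median of 0.18.

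In the class I pathway that uses the peptides cut by the proteasome, 12 of 12 genes were lower in *Irf1-/-* HSCs (8776 of 17404 over all genes tested), 9 of them at an adjusted *P* under 0.05 (1.49% over all), and 5 were called lower (0.954% over all). The median log2 fold change was −0.51, beside −0.96 for the immunosubunits. *Tapbpl*, a peptide editor, was at 39.7% of WT (−1.3 on the log2 scale, adjusted *P* = 3.01e-06, limma). *Erap1*, which trims peptides, was at 58.3%, the transporter subunit *Tap1* at 64.2%, the light chain *B2m* at 64.9%, and the transactivator *Nlrc5* at 65.4%. *Tap1* and *Nlrc5* fell short of the size threshold after quantile normalization (−0.572 and −0.578), without *Irf1-/-* replicate 3 (−0.577 and −0.556), and without WT replicate 3 for *Tap1* (−0.545) or WT replicate 2 for *Nlrc5* (−0.560). *Tapbpl* alone of the 5 was called without the trend.

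Profiles over the 6 libraries were compared with the mean profile of *Psmb8*, *Psmb9*, and *Psmb10* among 12059 genes with a mean of at least 100. The measure was the root mean square difference of log2 values centred on each gene's mean. The 5 closest genes outside the members were taken. They were *Adgrd1* (difference 0.0777), *Erap1* (0.101), *Gins1* (0.122), *Ly75* (0.124), and *Isg20* (0.129), beside 0.0453, 0.0502, and 0.0535 for *Psmb8*, *Psmb10*, and *Psmb9* themselves. Each immunosubunit gene is part of the mean profile, which makes its own difference smaller. Its value can therefore not be ranked against those of other genes. Of the members left out of this choice, *Psme2b* was closer than *Adgrd1*, and *Psme2* was closer than *Erap1*. *Adgrd1*, an adhesion receptor, had 1982, 2056, and 1724.5 normalized counts in WT and 916, 955, and 1020.5 in *Irf1-/-* replicates 2, 3, and 4. The *Irf1-/-* mean was 50.2% of WT, beside 50.8% for *Psmb9*. The 4 others were at 56.7 to 61.6% of WT.

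Promoter sequences from RefSeq (GRCm38.p6, 250 bases before to 50 after the gene start) were found for 9 of the 10 members; *Psmb7* had none. They are shown for the genes that hold a motif and for *Psmb9*, whose window overlaps with that of *Tap1*. The core GAAANNGAA bound by interferon regulatory factors, searched on both strands, occurred in 2 of the 9 genes' windows, those of *Psme1* and *Pomp*, beside 8.53% of 32544 promoters of this length. TTCNNNGAA, the form of a STAT dimer site, occurred in 1, that of *Psmb8*, beside 8.33%. A match is only a match of letters, and the absence of one says only that the letters are not in this window.

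The window of *Psme1*, chr14:55578244-55578543 on the + strand, has the GAAANNGAA match in capitals, on the reverse strand within the first bases after the start. That of *Pomp*, chr5:147860378-147860677 on the + strand, has its match in capitals across the start.
*Psme1*: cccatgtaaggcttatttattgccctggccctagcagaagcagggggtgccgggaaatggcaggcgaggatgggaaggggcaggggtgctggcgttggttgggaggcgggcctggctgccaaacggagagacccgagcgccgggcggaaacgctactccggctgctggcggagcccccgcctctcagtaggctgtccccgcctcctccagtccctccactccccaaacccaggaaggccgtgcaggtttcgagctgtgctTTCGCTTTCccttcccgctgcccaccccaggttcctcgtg
*Pomp*: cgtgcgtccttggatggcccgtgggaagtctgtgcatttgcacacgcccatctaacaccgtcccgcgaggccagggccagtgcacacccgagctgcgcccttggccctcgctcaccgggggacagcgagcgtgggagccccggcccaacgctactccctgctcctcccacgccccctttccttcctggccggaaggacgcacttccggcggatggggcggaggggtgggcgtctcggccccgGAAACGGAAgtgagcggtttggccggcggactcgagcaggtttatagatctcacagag
The gene with the match and a call was *Psme1*, whereas *Pomp* was not called.

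The windows of 2 immunosubunits of the MHC region are given with the transcribed bases in capitals. That of *Psmb8* is chr17:34197945-34198244 on the + strand. That of *Psmb9* is chr17:34187281-34187580 on the − strand, and its 300 bases share 275 with the window of *Tap1*, which is transcribed the other way from a start 226 bases away.
*Psmb8*: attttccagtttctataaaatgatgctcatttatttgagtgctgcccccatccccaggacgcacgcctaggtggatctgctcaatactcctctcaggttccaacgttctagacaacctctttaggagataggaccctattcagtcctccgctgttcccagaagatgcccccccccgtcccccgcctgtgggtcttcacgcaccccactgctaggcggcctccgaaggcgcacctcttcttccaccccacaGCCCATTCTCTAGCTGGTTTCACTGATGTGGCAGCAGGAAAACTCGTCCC
*Psmb9*: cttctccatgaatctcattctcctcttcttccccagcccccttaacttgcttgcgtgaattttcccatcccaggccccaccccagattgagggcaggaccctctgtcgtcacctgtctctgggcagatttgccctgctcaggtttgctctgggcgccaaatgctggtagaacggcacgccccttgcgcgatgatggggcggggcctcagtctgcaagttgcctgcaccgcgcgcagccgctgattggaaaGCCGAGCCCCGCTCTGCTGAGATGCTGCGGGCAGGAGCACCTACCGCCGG
The genes on both sides of this shared stretch were called lower, *Psmb9* at 50.8% and *Tap1* at 64.2% of WT.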

How the data were processed

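RNA-seq of HSCs was done by the authors with the SMART-Seq v4 and Nextera XT kits, without molecular identifiers, from both ends of each fragment. Reads were trimmed (Trim Galore), aligned (HISAT2, genome build mm39 per the processing notes), and counted per gene (Htseq-count). The deposited values are a signal derived from counts, which the authors divided by 1 DESeq2 size factor per library. Annotation, strand setting, and program versions are not given in the sources used here. All values (100%) were whole multiples of the value of 1 read within 0.001 of a read, so reads were recovered. Reads on genes were 59658080, 45332573, and 43267486 in WT replicates 2, 3, and 4 and 43138521, 57281017, and 45129929 in *Irf1-/-* replicates 2, 3, and 4. PCR copies cannot be recognised, so counting errors cover counting only.

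Genotypes were compared with limma 3.58.1 (lmFit, and eBayes with trend, R 4.3.3) on log2(normalized count + 1) for genes whose mean reached 10, which understates changes of low genes, with Benjamini-Hochberg adjustment over all of them. Ratios were tested with the exact two-sided permutation test. Alternatives were pseudocounts of 0.5 and 10, no filter, a mean of at least 100, no trend, quantile normalization, median centring, the replicate block, each library left out, and edgeR 4.0.16 and DESeq2 1.42.0 on recovered reads (323 and 504 genes called). For ratios they were a pseudocount of 10, other denominators, the replicate block, and each library left out, and quantile normalization was added after the data were seen. The tests were tried on simulated data. Biopython 1.88 aligned coding sequences, and matplotlib drew the plots.

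The members and lists were chosen with earlier results of these data known. Named genes are the members, *Irf1*, each called gene of a list or otherwise its lowest and highest gene, and the 5 genes outside the members with the closest profile. A gene that this rule would name, and the list it belongs to, are not reported here. Marker genes, overlapping genes, and *Psmb11* were named outside this rule after their values were seen.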

Additional observations from a re-analysis of the deposited data

How the results depend on the processing

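The log2 differences of the 3 ratios kept their direction under every alternative run, with all *Irf1-/-* libraries below all WT libraries and an exact permutation *P* of 0.1 in each fit without the block. Over the left-out libraries they lay between −0.670 and −0.505 for *Psmb8* over *Psmb5*, −0.831 and −0.618 for *Psmb9* over *Psmb6*, and −0.749 and −0.672 for *Psmb10* over *Psmb7*. Against the geometric mean of *Psmb1* to *Psmb4* they were −0.598, −0.711, and −0.691. Fitting limma without the trend left 33 genes called lower, 7 called higher, and 1 member called lower (*Psmb9*), and the cause was not tested. DESeq2 called 209 genes lower and 295 higher. Over the left-out libraries, 105 (without WT replicate 3) to 265 (without WT replicate 4) genes were called lower, 83 (without *Irf1-/-* replicate 4) to 304 (without WT replicate 4) were called higher, and 5 to 6 members were called lower, with *Psme1* the one lost.

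Of 44 single genes, 21 kept their direction and their call or lack of it under all 16 alternatives, 12 lost their call only without the trend, 6 also elsewhere, and 2 gained one (*Procr* without WT replicate 2, *9930111J21Rik1* after quantile normalization and in DESeq2). In 7 of the 21 the adjusted *P* alone crossed 0.05 somewhere: it rose past it for *Psma5*, *Psmd13*, and *Ly6a* (highest 0.289, 0.298, and 0.262) and went below it for *Pomp*, *Psmg2*, *Psmb2*, and *Stat3* (lowest 0.0431, 0.0326, 0.0312, and 0.0108, highest 0.391, 0.371, 0.363, and 0.558). In 3, none called, the direction turned. The log2 fold change of *Psma8* was −0.0469 after quantile normalization, −0.0166 after median centring, −0.0346 in edgeR, −0.0356 in DESeq2, −0.0396 without *Irf1-/-* replicate 2, −0.00635 without *Irf1-/-* replicate 3, −0.0576 without WT replicate 2, and −0.180 without WT replicate 3 (highest 0.281, without WT replicate 4). That of *Sem1* was −0.174 without WT replicate 3 (highest 0.214), and that of *Ddi2* −0.0732 without WT replicate 4 (highest 0.190).

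Replicate numbers do not pair the mice by any source, and deviations of same-numbered libraries correlated at −0.094, 0.246, and 0.147, with 3 of 6 libraries closest to their own number. With the replicate number as a block, 196 genes were called lower and 219 higher, 6 members were called lower, and the ratio differences were the same (−0.581, −0.749, and −0.702), with an exact permutation *P* of 0.25, the smallest that 3 pairs allow.

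With 3 mice per genotype, whole-body knockout, and transcript counts alone, protein levels, assembly, and activity of the proteasome were not measured here. The smallest exact *P* is 0.1. *Psme2b* shares sequence with *Psme2*, and levels between genes depend on the gene models used.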
